A study of Mus musculus with 13 samples.

Results

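The Prdm genes encode relatives of BLIMP1, the product of Prdm1, and 7 of them are described here as places where BLIMP1 was found on chromatin: Prdm2, Prdm4, Prdm8, Prdm10, Prdm13, Prdm15 and Prdm16, of 21887 protein-coding genes in all. They were taken as a given list of paralogues, and for each one the BLIMP1 summits in the gene and within 1, 5 and 50 kb of its ends were collected. A summit is the single position at which a ChIP-seq peak was called. PRDM proteins share a PR domain, related to the SET domain of histone methyltransferases, and most also carry zinc fingers that bind DNA. Some members modify histones themselves and others recruit enzymes that do. Many act at steps where a cell takes on one fate and gives up another, in germ cells, neurons, fat and blood.

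BLIMP1 carried an EGFP tag at its N terminus, knocked in on both alleles in C57BL/6 mice or embryonic stem cells, and the same anti-GFP antibody was used throughout. The germ lineage was represented by 3 cell types. Day 2 PGC-like cells (d2 PGCLC) were cultured from epiblast-like cells with LIF and BMP4 and sorted for KIT, and day 6 cells (d6 PGCLC) were cultured with LIF, BMP4, BMP8a, SCF and EGF and sorted for SSEA1 and integrin beta-3. Primordial germ cells (PGC) of E12.5 gonads, from embryos made by intracytoplasmic sperm injection, were sorted for SSEA1, with 1 male and 1 female library, which are treated here as the pair of libraries of one cell type. The somatic cell types were intestinal epithelium of E16.5 embryos sorted for GFP and EPCAM, photoreceptor precursors of postnatal day 4 retina sorted for GFP, and plasmablasts, B cells stimulated with IL-4 and LPS for 3 days and sorted for GFP and CD138. All but the E12.5 PGC had 2 replicates, and the labels do not say whether these came from separate animals or cultures, so the spread between the libraries of a cell type may be technical. Binding positions carry no expression values, so cell types are those of the labels and were not checked against markers.

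The lists held between 7998 summits (intestinal epithelium replicate 1) and 76185 summits (d6 PGCLC replicate 1) on chromosomes 1 to 19, X and Y. The other d6 PGCLC library held 15411, and the plasmablast libraries 40750 and 45122. A cell type counted as binding a gene only if each of its 2 libraries placed a summit inside the window. The 2 libraries did not have to place it at the same site. Since longer lists bind more genes by this rule, counts are set beside the share of all protein-coding genes bound by the same rule in the same cell type, and rates are given per 10000 summits of a list.

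Each of the 7 Prdm genes had BLIMP1 near it in some cell type. Plasmablasts bound all 7 at a distance of up to 5 kb from an end, where they bound 50.3% of all genes, and 57.8% of all genes were bound there by at least 1 cell type. The other cell types bound fewer members, with 5 in d2 PGCLC (17.8% of all genes), 3 in photoreceptor precursors (15.5%), 2 in d6 PGCLC (19.2%), 2 in E12.5 PGC (12.2%) and 1 in intestinal epithelium (12.9%). Prdm16 was the one member bound there by all 6, as 4.16% of all genes were. The E12.5 PGC count includes Prdm10, where the libraries met the rule at opposite ends. The male summit lay at 31386307, by the upper-coordinate end, and the female one at 31280447, by the lower-coordinate end.

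Within 1 kb of an end the counts were smaller. Plasmablasts bound 4 members (Prdm2, Prdm4, Prdm8 and Prdm15), against 39.7% of all genes. d2 PGCLC bound 2 (Prdm8 and Prdm16), against 8.41% of all genes. Its summits at Prdm8 lay at 98167797 and 98167556, over 200 bp apart. In d6 PGCLC, E12.5 PGC, intestinal epithelium and photoreceptor precursors Prdm16 alone was bound, where 9.72%, 5.79%, 7.29% and 9.68% of all genes were. No member was bound there by all 6 cell types. Of all genes 2.28% were, too small a share for a list of 7 genes to fall below. With 1 library alone defining the cell type, d6 PGCLC replicate 1 and each plasmablast library gave 5 members, and photoreceptor precursor replicate 2 gave 4. The female E12.5 PGC library and intestinal replicate 2 gave 2 each.

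Inside the gene bodies, d2 and d6 PGCLC each bound 4 members (19.7% and 20.2% of all genes), plasmablasts 5 (39.1%), and E12.5 PGC, intestinal epithelium and photoreceptor precursors 3 each (14.9%, 11.5% and 14.8%). From 1 library alone, d6 PGCLC replicate 1 and plasmablast replicate 2 gave 6, and photoreceptor precursor replicate 2 gave 5. The female E12.5 PGC library and intestinal replicate 2 gave 4 each. Gene length enters these counts, since the members had a median length of 60.4 kb and all protein-coding genes one of 17.2 kb. Of genes of 50 kb or more, a class that holds 4 of the members, 60.4% were bound in plasmablasts, 47.2% in d6 PGCLC, 48.9% in d2 PGCLC, 40.7% in E12.5 PGC, 36.7% in photoreceptor precursors and 26.4% in intestinal epithelium. The 4 members in this class are Prdm2, Prdm10, Prdm15 and Prdm16. Plasmablasts bound each of them, and photoreceptor precursors bound Prdm10 and Prdm16. The other cell types bound Prdm2, Prdm10 and Prdm16.

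At up to 50 kb from an end most members were bound, and so were many other genes. Plasmablasts and d2 PGCLC reached all 7 (72.2% and 55.3% of all genes). d6 PGCLC, photoreceptor precursors and E12.5 PGC reached 6 each (54.8%, 43.7% and 46.3%), and intestinal epithelium reached 4 (40.5%). The E12.5 PGC count includes Prdm13, where the male and female libraries shared no site. Their summits closest to an end lay at 21727396 (male) and 21690694 (female). Prdm2, Prdm4, Prdm10 and Prdm16 were bound by all 6 cell types, as 20.5% of all genes were.

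**Figure D1:**
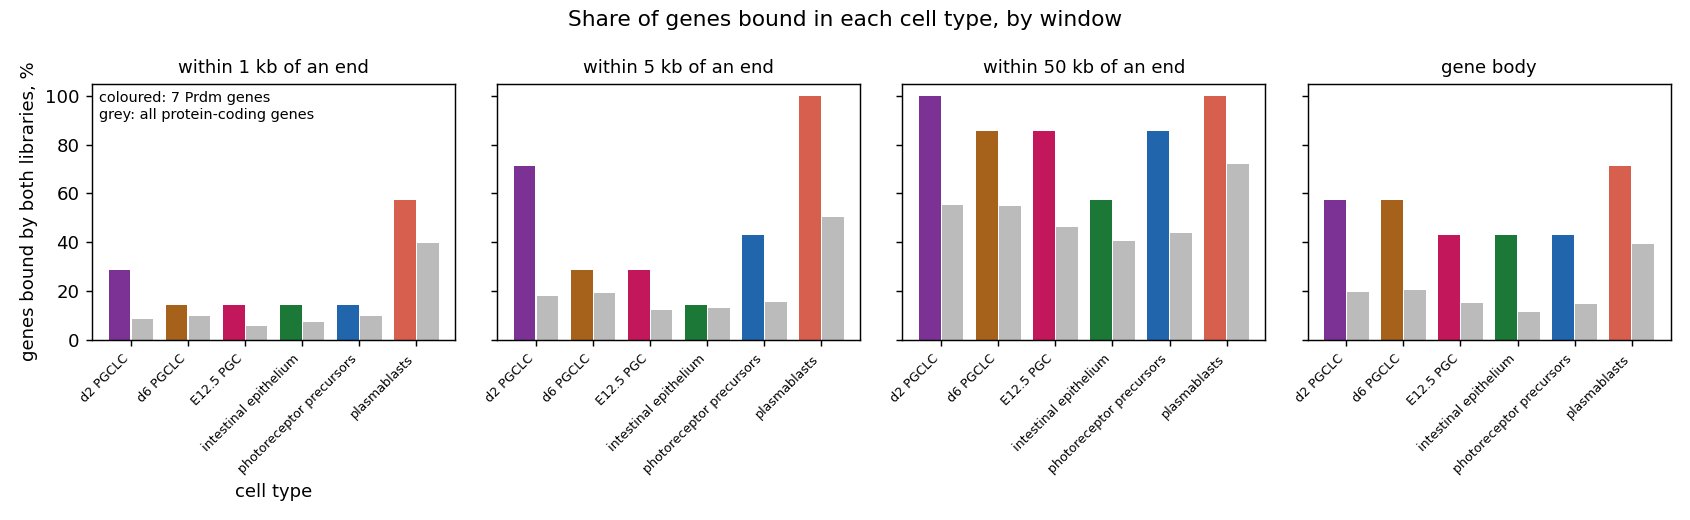
Share of genes (percent) with a summit of both libraries in each of 6 cell types, for the 7 Prdm genes (coloured bars) and all 21887 protein-coding genes (grey bars), in 4 windows. Within 1 kb of an end the Prdm bar stands for 1 gene, Prdm16, in 4 of the cell types, and within 5 kb plasmablasts reach all 7.

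Neighbouring summits, whatever their library, were joined into a region where the gap was 200 bp or less, and binding of a region again required both libraries of the cell type. The 7 genes with 50 kb on each side held 54 bound regions. Of these, 28 were bound in plasmablasts, which is 51.9% of the members' regions against 55.4% of all bound regions of the genome. d2 PGCLC bound 19 (35.2% against 28.5%) and d6 PGCLC 17 (31.5% against 27.2%). Photoreceptor precursors bound 14 (25.9% against 18.8%), intestinal epithelium 11 (20.4% against 11.8%) and E12.5 PGC 10 (18.5% against 18.3%). These shares were not tested. Another gene lay nearer than the member at 10 of the 54. Regions found in a single cell type, with every other library lacking a summit there, numbered 10 for plasmablasts, 7 for photoreceptor precursors, 2 for d6 PGCLC and 1 for intestinal epithelium. Such regions made up 13% of the members' bound regions for photoreceptor precursors and 18.5% for plasmablasts, against 8.17% and 28.7% of the bound regions of the whole genome. For d6 PGCLC they made up 3.7% against 1.92%, and for intestinal epithelium 1.85% against 2.2%. The 7 of photoreceptor precursors lay at Prdm16 (5) and Prdm8 (2) alone. The counts rest on requiring both libraries. From 1 library alone, d6 PGCLC had 109 regions by replicate 1 and 21 by replicate 2, and d2 PGCLC 44 by replicate 2 and 23 by replicate 1. Plasmablasts had 44 by replicate 1 and 52 by replicate 2, E12.5 PGC 20 by the female library, and replicate 2 gave 23 for both intestinal epithelium and photoreceptor precursors.

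**Figure D2:**
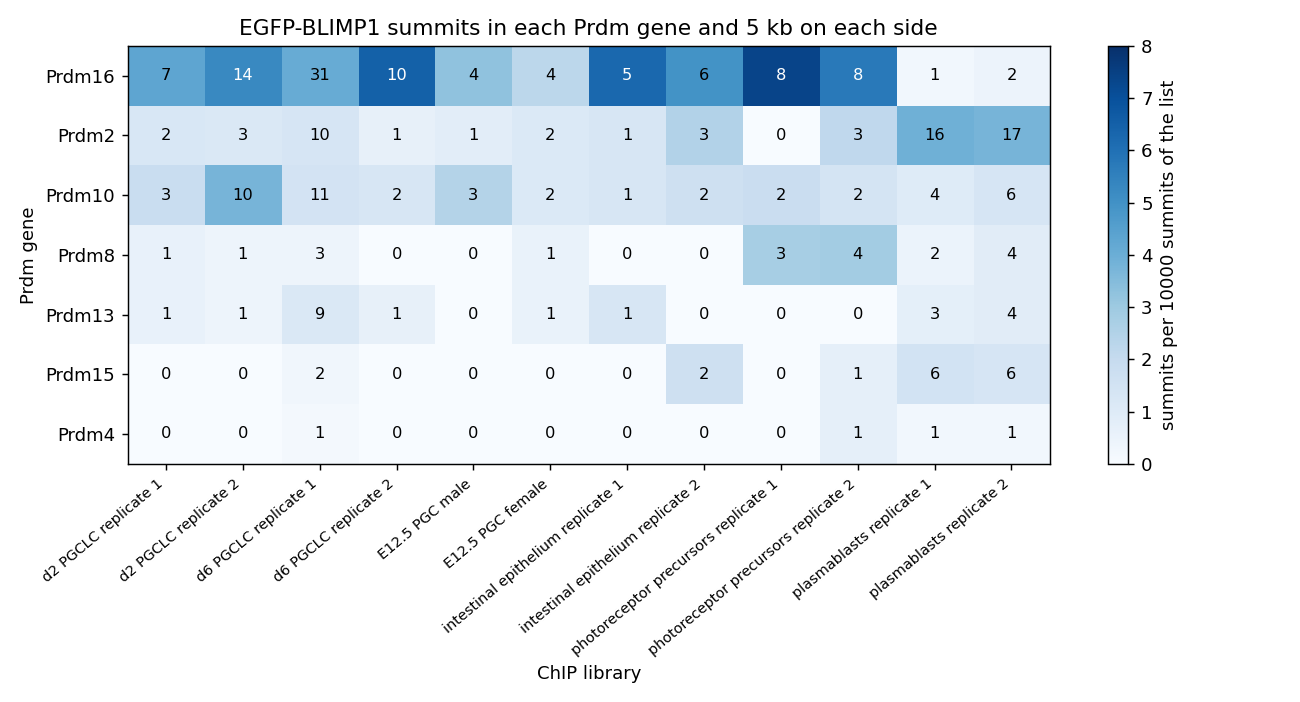
Number of summits (figures in the cells) in each Prdm gene with 5 kb on each side, for the 12 libraries; colour gives summits per 10000 summits of the list. Prdm16 is darker in 10 libraries than in the 2 plasmablast libraries, and Prdm2 is darkest in the 2 plasmablast libraries.

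Prdm16 encodes a regulator with histone methyltransferase activity that directs brown fat fate and maintains blood and neural stem cells. It was the member with BLIMP1 summits at its start in the most cell types. The gene covers 321.2 kb (chromosome 4, 154316122 to 154637360) on the minus strand, and its listed start lies at 154636873. A total of 11 libraries had a summit between 46 and 119 bp downstream of that start, and all 12 had another between 592 and 1050 bp downstream. Plasmablast replicate 1 alone lacked the first of these sites. By the rule of 1 kb from an end Prdm16 was therefore bound in 5 cell types, as 3.76% of all genes were in at least 5, and plasmablasts were missing. Measured from the listed start, plasmablasts counted as well, with summits at 761 bp in replicate 1 and at 114 and 829 bp in replicate 2.

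The sequence before the Prdm16 start, from RefSeq (GRCm38.p6, chr4:154636844-154637123, minus strand), is shown because the summits of 5 cell types begin just past its last base. It ends 30 bases into the transcript.
Prdm16: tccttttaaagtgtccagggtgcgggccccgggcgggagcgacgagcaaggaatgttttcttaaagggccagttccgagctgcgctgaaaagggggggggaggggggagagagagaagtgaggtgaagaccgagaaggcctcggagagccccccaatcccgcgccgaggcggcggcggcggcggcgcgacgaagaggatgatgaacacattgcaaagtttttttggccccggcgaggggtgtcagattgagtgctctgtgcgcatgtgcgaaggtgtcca

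The second site, 592 to 1050 bp downstream, was less uniform than the first. The summits of E12.5 PGC lay at 594 bp (male) and 612 bp (female), those of plasmablasts at 761 and 829 bp, and those of photoreceptor precursors at 1050 and 937 bp. With summits joined at 100 bp in place of 200 bp, this region divided into 3, each with 4 libraries. The first site spanned 73 bp over its 11 libraries.

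Away from its start, Prdm16 was bound at different places in different cell types. Photoreceptor precursors had 5 regions inside the gene that no other library shared, at 32535, 38252, 53894, 143778 and 179976 bp downstream of the start. At least 5 such regions were found in 0.11% of all genes (24), and in 19 of the 557 genes of 300 kb or more (3.41%). Germ-lineage cells had 4 regions in the gene without a somatic summit, a number reached by 0.845% of all genes and by 15.3% of the genes of 300 kb or more. The one at 225773 bp was bound in d2 PGCLC, d6 PGCLC and E12.5 PGC, and the one at 247006 bp in d2 and d6 PGCLC. The region at 70235 bp was bound in d6 PGCLC alone, and the region at 11663 bp in d6 PGCLC with further summits in d2 PGCLC replicate 2 and the female E12.5 PGC library. Intestinal epithelium had 1 region of its own, at 218376 bp.

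**Figure D3:**
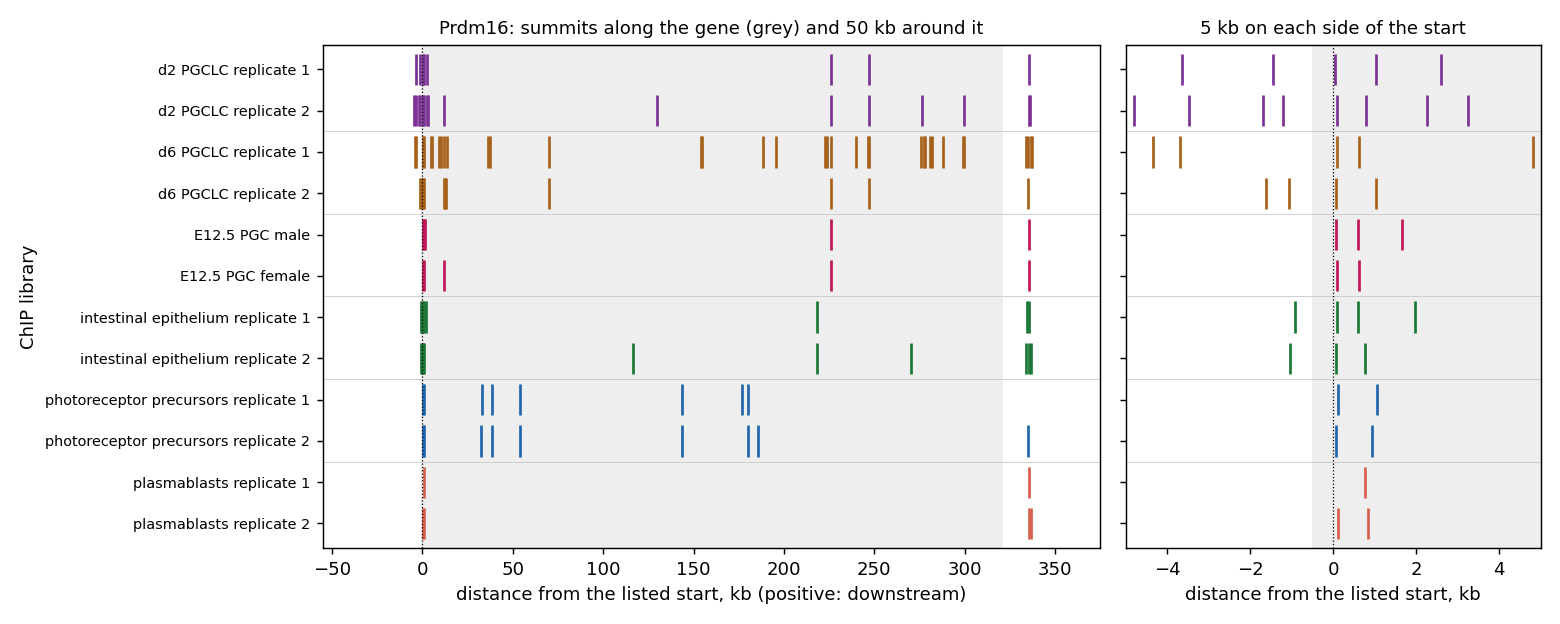
BLIMP1 summits (ticks) of the 12 libraries along Prdm16, by distance in kb from its listed start (dotted line, positive downstream); the gene body is grey, and the right panel enlarges 5 kb on each side of the start. Each library has summits just past the start, photoreceptor precursors have ticks of their own from 32535 to 179976 bp downstream, and the plasmablast rows are empty in the rest of the gene.

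Counted over the gene and 5 kb on each side, Prdm16 had 7 and 14 summits in d2 PGCLC, 31 and 10 in d6 PGCLC, and 4 each in male and female E12.5 PGC. The somatic libraries had 5 and 6 in intestinal epithelium, 8 and 8 in photoreceptor precursors and 1 and 2 in plasmablasts. Per 10000 summits of a list the plasmablast rates were 0.245 and 0.443, and those of the other 10 libraries lay between 2.25 (female E12.5 PGC) and 7.37 (photoreceptor precursor replicate 1), so plasmablasts did not overlap the rest. Prdm16 held 3.11 plasmablast regions per Mb of gene body, against 14.5 over all gene bodies. In the other cell types it held more than the average gene body, with 21.8 regions per Mb against 4.47 in photoreceptor precursors, 18.7 against 6.05 in d6 PGCLC and 9.34 against 2.79 in intestinal epithelium. These differences were not tested. By rate, Prdm16 stood above 98.7% to 99.9% of protein-coding genes in those 5 cell types and above 54.1% in plasmablasts, with length not taken into account.

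Beyond the lower-coordinate end of Prdm16, 14.5 kb outside the gene, a region at 154301442 to 154301640 held summits of 11 libraries. It was bound in all cell types but photoreceptor precursors, where replicate 2 alone had a summit. It lay 1335 bp from Arhgef16, an exchange factor gene, and so nearer to that gene than to Prdm16.

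Prdm2 encodes RIZ1, a histone methyltransferase known as a tumour suppressor. In plasmablasts it held more summits than any other member. The gene covers 105.4 kb (chromosome 4, 143107391 to 143212769). With 5 kb on each side it held 16 and 17 summits in plasmablasts, between 1 and 10 in the 6 germ-lineage libraries, 1 and 3 in intestinal epithelium, and 0 and 3 in photoreceptor precursors. The rates of the plasmablast libraries, 3.93 and 3.77 per 10000, lay above those of the other 10 libraries, of which intestinal epithelium replicate 2 was the highest with 2.48.

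All 10 bound regions inside Prdm2 were bound in plasmablasts, which gives 94.9 per Mb against 14.5 over all gene bodies. A total of 6 of them had no summit in any other cell type, and 0.672% of all genes (147) had at least 6 such regions. Of the genes of 300 kb or more, 5.03% did. Prdm2, with 105.4 kb, is shorter than these, and neither share is matched to its length. The region nearest to a gene end (143212249 to 143212331) lay 438 bp inside the upper-coordinate end and was one of these 6. A single region of the 10, at 143190738 to 143190937, was shared widely, with 10 libraries and all cell types but photoreceptor precursors.

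Of the 3 regions near the members that held all 12 libraries, the narrowest lay outside Prdm2. All 12 libraries had a summit between 143083458 and 143083512, a span of 54 bp, 23.9 kb below the lower-coordinate end, and Prdm2 was the nearest protein-coding gene. The d2 PGCLC summits lay at 143083508 and 143083499, the d6 PGCLC summits both at 143083511, and the E12.5 PGC summits at 143083508 and 143083505. In the somatic cells they lay at 143083458 and 143083483 in intestinal epithelium, at 143083511 and 143083496 in photoreceptor precursors, and at 143083512 and 143083496 in plasmablasts. For photoreceptor precursors it was the one bound region at Prdm2. Regions with a summit of all 12 libraries numbered 1093 in the genome, and 11.2% of protein-coding genes had one inside or within 50 kb. Of the 7 members Prdm2, Prdm4 and Prdm16 did.

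**Figure D4:**
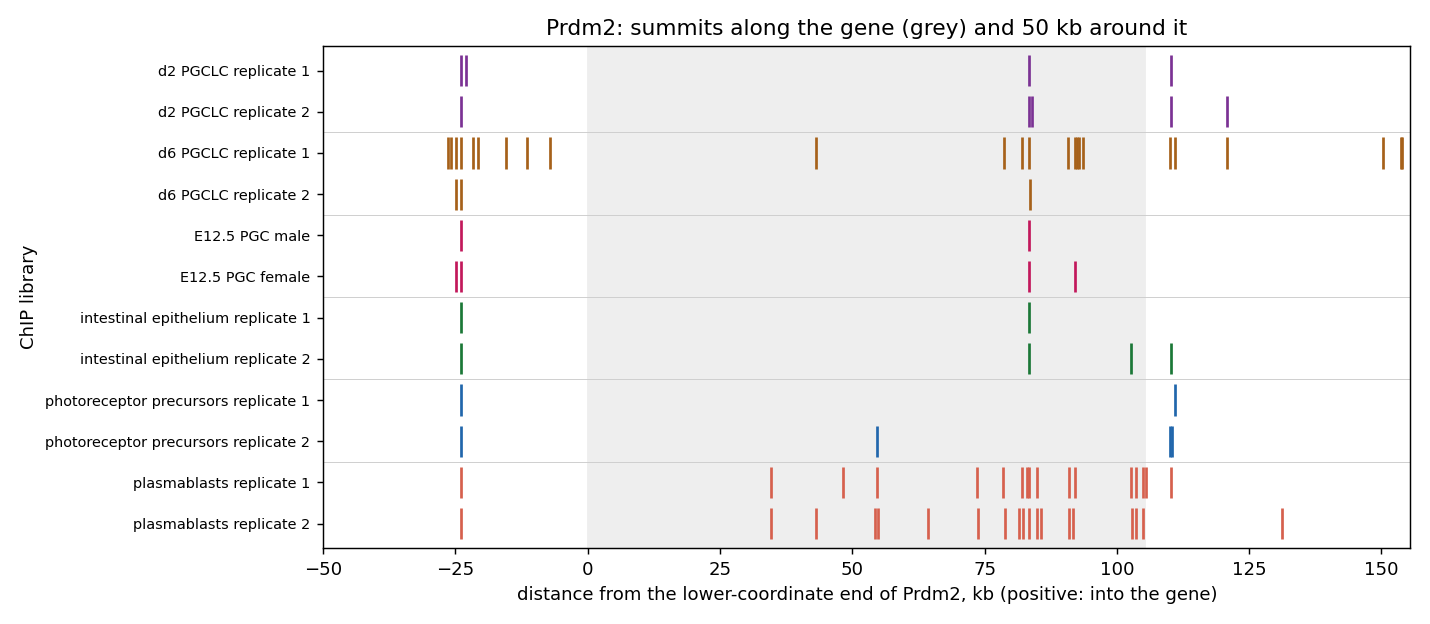
BLIMP1 summits (ticks) of the 12 libraries along Prdm2, by distance in kb from its lower-coordinate end; the gene body is grey. Each library has a tick 23.9 kb below the gene, and the 2 plasmablast rows carry 14 and 17 ticks inside the gene.

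Prdm10 encodes a zinc-finger activator needed in early mouse embryos. It was bound inside the gene in all 6 cell types, as 4.04% of genes of all lengths were, but at different sites. Longer genes were bound inside more often in each cell type, so this share is not matched to the length of Prdm10. The gene covers 105.6 kb (chromosome 9, 31276110 to 31381731) with listed starts at 31280549 and 31313427 on the plus strand. With 5 kb on each side it held 3 and 10 summits in d2 PGCLC, 11 and 2 in d6 PGCLC, and 3 (male) and 2 (female) in E12.5 PGC. The somatic libraries had 1 and 2 in intestinal epithelium, 2 and 2 in photoreceptor precursors, and 4 and 6 in plasmablasts. No library placed a summit nearer than 1 kb to an end, yet the first listed start lies over 4 kb inside the lower-coordinate end, and there the gene was bound. Photoreceptor precursors had summits 170 and 227 bp downstream of the start, and plasmablasts 303 and 324 bp. d6 PGCLC replicate 1 (116 bp) and d2 PGCLC replicate 2 (365 bp) had a summit there without their second library. The same cell types and libraries had another region 2173 to 2390 bp downstream.

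The other widely shared site of Prdm10 was bound in the cell types that did not count as bound at the first start. d2 PGCLC replicate 2 and d6 PGCLC replicate 1 had summits at both sites. The region at 31354129 to 31354226, 27505 bp from the upper-coordinate end, held summits of all 6 germ-lineage libraries and of both intestinal libraries, and none of photoreceptor precursors or plasmablasts. A region at 31331811 to 31332119 was bound in d2 PGCLC and plasmablasts. Near the upper-coordinate end, at 31385411 to 31385620, d2 PGCLC had a region 542 bp from Nfrkb, a chromatin remodelling subunit gene. Farther out, a region inside Tmem45b (31429575 to 31429728) was bound in the 3 germ-lineage cell types with no somatic summit.

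The sequence at the first start of Prdm10 (RefSeq, GRCm38.p6, chr9:31280299-31280578, plus strand) precedes the sites of photoreceptor precursors and plasmablasts. Capitals mark 10 bases on each side of the summit of the female E12.5 PGC library, the one library with a summit in this stretch.
Prdm10: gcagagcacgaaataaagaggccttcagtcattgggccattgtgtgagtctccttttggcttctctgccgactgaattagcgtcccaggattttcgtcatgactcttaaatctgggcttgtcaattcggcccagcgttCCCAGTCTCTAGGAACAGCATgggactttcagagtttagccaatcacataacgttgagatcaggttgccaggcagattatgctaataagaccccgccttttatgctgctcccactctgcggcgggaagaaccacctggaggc

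Prdm15 encodes a zinc-finger factor that upholds the naive state of mouse embryonic stem cells. It was bound in plasmablasts and, in the gene itself, in no other cell type. The gene covers 60.4 kb (chromosome 16, 97791467 to 97851875) on the minus strand, with listed starts at 97851850 and 97851227. With 5 kb on each side plasmablasts had 6 and 6 summits. d6 PGCLC replicate 1 had 2, intestinal replicate 2 had 2, photoreceptor precursor replicate 2 had 1, and the other 7 libraries had 0.

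At the upper-coordinate end of Prdm15, 2 regions lay close together. The one at the second start (97851112 to 97851252) held both plasmablast libraries and d6 PGCLC replicate 1. The one at the first start (97851828 to 97851954) held 1 library each of d6 PGCLC, intestinal epithelium, photoreceptor precursors and plasmablasts, so it was bound in no cell type. The germ-lineage sites lay outside the gene. A region at 97889558 to 97889774, inside the neighbour C2cd2, was bound in all 3 germ-lineage cell types with no somatic summit, and a region at 97766680 to 97766883, which lay nearer to Ripk4, was bound in d2 and d6 PGCLC. Regions of the first kind lay in or within 50 kb of 10.1% of all genes.

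The first start of Prdm15 (RefSeq, GRCm38.p6, chr16:97851821-97852100, minus strand) is shown for the summits of 4 libraries within it, marked in capitals with 10 bases on each side.
Prdm15: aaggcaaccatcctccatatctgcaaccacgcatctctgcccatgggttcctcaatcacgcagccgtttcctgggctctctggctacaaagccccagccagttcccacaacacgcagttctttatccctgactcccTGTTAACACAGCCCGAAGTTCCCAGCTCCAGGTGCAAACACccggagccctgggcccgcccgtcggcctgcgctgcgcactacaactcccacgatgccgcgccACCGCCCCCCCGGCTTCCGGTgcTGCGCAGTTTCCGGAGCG

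Prdm8 and Prdm13 act in neurons, and both are needed for interneurons of the retina, Prdm8 for rod bipolar cells and Prdm13 for classes of amacrine cells. BLIMP1 itself holds photoreceptor precursors back from the bipolar fate. Prdm8 (chromosome 5, 98167203 to 98187454, plus strand) had 3 and 4 summits in photoreceptor precursors and 2 and 4 in plasmablasts with 5 kb on each side. d2 PGCLC had 1 and 1, d6 PGCLC 3 and 0, E12.5 PGC 0 (male) and 1 (female), and intestinal epithelium 0 and 0. The photoreceptor precursor rates, 2.76 and 2.87 per 10000, lay above those of the other 10 libraries, which reached 0.886 in plasmablast replicate 2.

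Photoreceptor precursors had 2 regions at Prdm8 that no other library shared. One lay 28.9 kb below the lower-coordinate end (98138215 to 98138302) and the other 1503 to 1624 bp inside that end (98168706 to 98168827). They also had summits at the listed start (98180869), at -81 bp in replicate 1 and at 414 bp in replicate 2. These 2 summits were too far apart for 1 region. The site shared with other cells, at 98167463 to 98167800 near the lower-coordinate end and over 13 kb before the listed start, was bound in d2 PGCLC and plasmablasts. It held single summits of d6 PGCLC replicate 1, the female E12.5 PGC library and photoreceptor precursor replicate 2. The d2 PGCLC summits there were over 200 bp apart and were joined through summits of other libraries. Neither intestinal library had a summit within 50 kb of Prdm8, the nearest lying 316651 bp from an end.

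Prdm13 (chromosome 4, 21675865 to 21685963, minus strand, start at 21685963) had no summit of photoreceptor precursors in the gene or within 5 kb. With 5 kb on each side it held 9 summits of d6 PGCLC replicate 1 and 1 of replicate 2, 3 and 4 of plasmablasts, and 1 or 0 of each other library. The 1 bound region inside the gene, at 21679783 to 21679944, was found in both d6 PGCLC libraries and no other, and the remaining 5 summits in the gene were of d6 PGCLC replicate 1, the list of 76185. Outside the gene, a region 4731 bp upstream of the start was bound in d2 PGCLC and plasmablasts and held 7 libraries, and a region 1542 bp beyond the lower-coordinate end was found in plasmablasts alone. The region bound in photoreceptor precursors and plasmablasts, 41.4 kb upstream, lay 49 bp from Ccnc, the cyclin C gene.

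**Figure D5:**
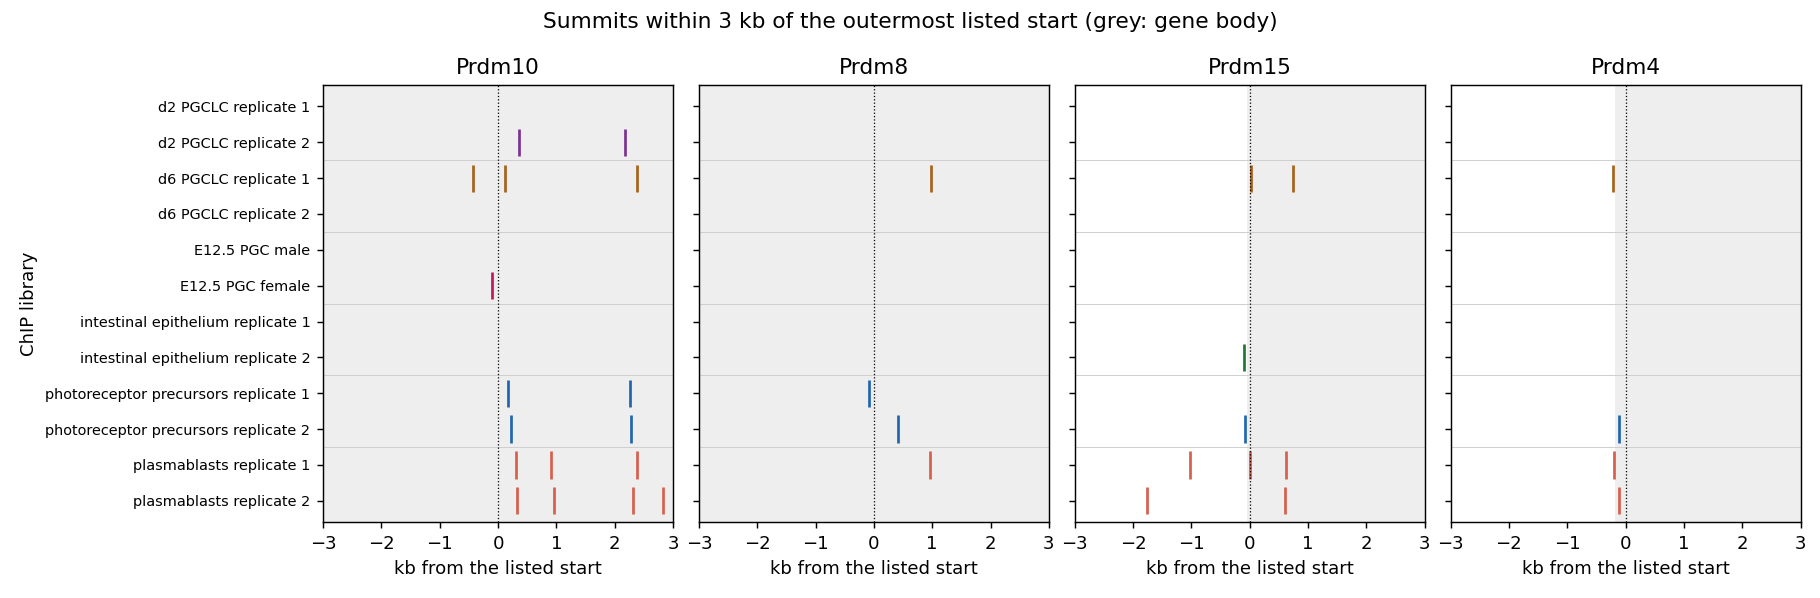
BLIMP1 summits (ticks) of the 12 libraries within 3 kb of the outermost listed start (dotted line, x axis in kb) of Prdm10, Prdm8, Prdm15 and Prdm4; the gene body is grey. Photoreceptor precursors and plasmablasts have paired ticks past the Prdm10 start, and at Prdm4 the plasmablast ticks lie before the start at -189 and -114 bp.

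Prdm4 encodes a zinc-finger factor that recruits the arginine methyltransferase PRMT5 in neural stem cells. It was bound in plasmablasts at its start and had no other summit in the gene. The gene covers 25.2 kb (chromosome 10, 85891964 to 85917152, minus strand, outer start at 85916986). Plasmablasts had summits at -189 and -114 bp, photoreceptor precursor replicate 2 at -114 bp and d6 PGCLC replicate 1 at -222 bp. The other 8 libraries had none within 5 kb of the gene. All 12 libraries had a summit 40.6 kb above the upper-coordinate end, between 85957783 and 85957913, which lies at the end of the RNA ligase gene Rtcb and is nearer to it than to Prdm4.

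The start of Prdm4 (RefSeq, GRCm38.p6, chr10:85916957-85917236, minus strand) is shown with 10 bases on each side of each summit in capitals. The left stretch is that of d6 PGCLC replicate 1, the middle one that of plasmablast replicate 1, and the right one that of plasmablast replicate 2 and photoreceptor precursor replicate 2.
Prdm4: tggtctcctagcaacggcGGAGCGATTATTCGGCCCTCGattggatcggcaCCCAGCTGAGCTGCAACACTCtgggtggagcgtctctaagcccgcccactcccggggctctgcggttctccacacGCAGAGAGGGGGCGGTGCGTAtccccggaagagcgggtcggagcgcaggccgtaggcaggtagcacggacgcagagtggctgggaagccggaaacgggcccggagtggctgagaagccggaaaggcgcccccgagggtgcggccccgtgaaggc

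Promoter sequences were matched for 6 of the 7 members, all but Prdm2, and 280 bases of the outermost start of each were searched on both strands for GAAAG, the core of the sequence known to be bound by BLIMP1. Prdm4 had 1 match, at -5 bp from the start, and Prdm10 had 1, at -87 bp. Prdm8, Prdm13, Prdm15 and Prdm16 had 0 in these bases. The bases run from 250 before the start to 30 after it, and bound sites outside them were not searched. Among those not searched are the bound sites downstream of the Prdm10 and Prdm16 starts and the one at the second Prdm15 start. Of all 32851 listed promoters 55.1% held GAAAG. The longer AGNGAAAG, which contains it, was in none of the 6 and in 8.12% of all promoters. Neither match in Prdm4 or Prdm10 lay under the bases marked for a summit, but these 10 bases on each side do not give the extent of a peak. The Prdm10 match lay just past them, with the summit of the female E12.5 PGC library at -102 bp. At Prdm4 the summits closest to the match lay at -114 bp.

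By distance to a listed start in place of a gene end, an alternative chosen after the positions were seen, plasmablasts bound 4 of the 6 members (Prdm4, Prdm10, Prdm15 and Prdm16) and photoreceptor precursors 3 (Prdm8, Prdm10 and Prdm16). The shares of all genes with a listed start were 41.9% and 10.4%. d2 PGCLC, d6 PGCLC, E12.5 PGC and intestinal epithelium bound Prdm16 alone (8.11%, 9.38%, 5.84% and 7.53% of all genes).

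The germ-lineage and somatic cell types were compared by the summit rate in each gene with 5 kb on each side, as means of the 2 libraries of a cell type. Prdm15 had 0.044 ± 0.076 summits per 10000 in the germ lineage and 0.862 ± 0.522 in somatic cells (SD over cell types, n = 3 each), a difference of -0.818 (p = 0.1 in a two-sided exact permutation test, which is the lowest value its 20 splits can give). All 3 germ-lineage rates lay below all 3 somatic rates, as they did in 5.79% of all genes. The opposite order, shown by no member, was found in 5.29%. The Prdm15 difference depended on the window and on single libraries. It was -0.017 with 50 kb on each side (exact permutation p = 0.9) and -0.483 in the gene body (exact permutation p = 0.4). Without intestinal epithelium replicate 2 it was -0.543, and without photoreceptor precursor replicate 2 it was -0.698 (exact permutation p = 0.4 for each). For Prdm2 the rates were 1.04 ± 0.118 and 2.26 ± 1.43 (exact permutation p = 0.2). For Prdm10 they were 1.98 ± 0.736 and 1.42 ± 0.243 (exact permutation p = 0.3), and for Prdm16 4.27 ± 1.34 and 4.17 ± 3.34 (exact permutation p = 1.0). Prdm4, Prdm8 and Prdm13 had exact permutation p of 0.4, 0.6 and 0.9. No member passed a threshold of 0.05, which this design cannot reach.

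Genes with a like profile over the 12 libraries were sought among the 3903 with at least 20 summits in the gene and 5 kb on each side, a minimum that 4 members passed. The correlations describe list rates whose libraries share their cell types, and carry no test. Prdm16 was most like Sema6a (Pearson r = 0.94), a semaphorin gene, with 0 summits in both plasmablast libraries, and Gab1 (r = 0.921), an adaptor gene, with 0 and 1. Prdm2 was most like Lpin2 and Camk2d (r = 0.924 for each), with 10 and 15 plasmablast summits at Lpin2 and 26 and 37 at Camk2d. Prdm13 was closest to Camta2 (r = 0.901) and Cd38 (r = 0.854), and Prdm10 to Padi1 (r = 0.779) and Prkci (r = 0.756).

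Other family genes set beside them were 8: Prdm1, Mecom, Prdm6, Prdm9, Prdm11, Prdm12, Prdm14 and Zfp408. Within 1 kb of an end, 3 of the 8 were bound in plasmablasts (39.7% of all genes), 2 in photoreceptor precursors (9.68%) and 2 in intestinal epithelium (7.29%). The germ-lineage cell types bound 1 each, where d2 PGCLC bound 8.41% of all genes, d6 PGCLC 9.72% and E12.5 PGC 5.79%. The one bound throughout was Zfp408, a zinc-finger gene (chromosome 2, 91642756 to 91650051), with 1 summit in each of the 12 libraries between 91649943 and 91650413 at its upper-coordinate end. An end of Arhgap1 also lay within 1 kb of these summits. Inside the gene body, Prdm1, Mecom and Prdm9 were bound in all 6 cell types, as 4.04% of all genes were. That share is not matched for length, and these genes cover 91.4, 558.5 and 21.3 kb. Prdm10 and Prdm16 were the members bound in all 6.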

How the data were processed

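Summit lists of 12 anti-GFP ChIP-seq libraries were used; the input library of E12.5 male PGC was not analysed here. The authors deposited chromosome and position of each summit per library, without height, score or p-value. MACS2 2.1, Bowtie 1.1.2, cutadapt 1.7.1 and Trim Galore 0.3.7 and the build mm10 are named, per the submitters' processing notes. Threshold, control and read depth are not given in the sources used here, and positions may be off by 1 bp. List length may therefore depend on depth and threshold, and it may also depend on cell input. In units of 1e5 cells, the input of replicates 1 and 2 was 3.0 and 30.0 for d2 PGCLC and 3.0 and 10.0 for d6 PGCLC. The other libraries had between 3.3 (male E12.5 PGC) and 11.0 (plasmablast replicate 2).

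Gene ends came from RefSeq (GRCm38.p6, the coordinates of mm10), and 280-base promoters, starts and strand from a RefSeq promoter table of that build. Summits were counted with Python 3.11.15 and numpy 2.4.6 in the gene body and within 1, 5 and 50 kb of either end; regions joined summits at most 200 bp apart. Window counts and joining were tested on simulated data. Germ-lineage and somatic rates were compared by exact permutation over cell types. The members and lists were chosen with earlier results of these data known. All 7 members are named; other family genes are named with values when bound within 1 kb in at least 4 cell types. Replicates were left out in turn, and other windows, joining distances and scalings tried. One further family gene is not reported here.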

Additional observations from a re-analysis of the deposited data

How the results depend on the processing

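Binding in either library in place of both gave, within 1 kb of an end, 5 members in d6 PGCLC, 4 in photoreceptor precursors, 2 in intestinal epithelium and 2 in E12.5 PGC, and 5 in the gene body of photoreceptor precursors. Regions then numbered 113 in d6 PGCLC, 68 in plasmablasts, 48 in d2 PGCLC, 27 in photoreceptor precursors, 26 in intestinal epithelium and 25 in E12.5 PGC. With summits of both libraries at most 200 bp apart, d2 PGCLC had 1 member within 1 kb, Prdm16, and Prdm8 dropped out. Within 5 kb of an end the members numbered 7 in plasmablasts, 5 in d2 PGCLC, 3 in photoreceptor precursors, 2 in d6 PGCLC, 2 in E12.5 PGC and 1 in intestinal epithelium. Within 50 kb they numbered 7, 7, 6, 6, 6 and 4 in the same order. By a listed start, chosen after seeing the data, they numbered 1 in d2 PGCLC and 3 in photoreceptor precursors. Wider windows and either library raise counts by construction. Joining at 100 or 500 bp moved no count of regions by over 1.5 times.

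Without one library, members within 1 kb ranged from 1 to 5 in d6 PGCLC, 1 to 4 in photoreceptor precursors, 1 to 2 in intestinal epithelium and 1 to 2 in E12.5 PGC, and were 2 in d2 PGCLC and 5 in plasmablasts whichever library was left out. In the gene body they ranged from 3 to 5 in photoreceptor precursors, 4 to 6 in d6 PGCLC and 5 to 6 in plasmablasts. There they ranged from 3 to 4 in E12.5 PGC and in intestinal epithelium, and were 4 in d2 PGCLC whichever library was left out. Regions ranged from 21 to 109 in d6 PGCLC, 44 to 52 in plasmablasts, 23 to 44 in d2 PGCLC, 18 to 23 in photoreceptor precursors, 14 to 23 in intestinal epithelium and 15 to 20 in E12.5 PGC.

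The germ minus somatic rate of Prdm16 (0.105) was -0.306 with 50 kb on each side and -0.264 in the gene body, and ranged from -0.298 to 0.509 without one library. That of Prdm13 ranged from -0.123 to 0.293. These 2 differences have no stable sign, and the cause was not tested. The other 5 members kept their sign under every alternative run, but not their size. That of Prdm15 (-0.818) was -0.017 with 50 kb on each side and ranged from -1.09 to -0.543 without one library. That of Prdm10 (0.57) was 0.163 in the gene body and 0.869 with 50 kb, and 0.252 without d2 PGCLC replicate 2 and 0.35 without the male E12.5 PGC library. That of Prdm4 (-0.175) was -0.519 with 50 kb, and -0.056 without photoreceptor precursor replicate 2 and -0.295 without replicate 1. With the replicate number as a block, over the 5 cell types with numbered libraries, the differences were -1.18 for Prdm2, -0.796 for Prdm15, 0.671 for Prdm10 and 0.865 for Prdm16, and no sign changed. Same-numbered libraries did not deviate together (r across genes between -0.284, for d2 and d6 PGCLC, and 0.055 over pairs of cell types). Whether same-numbered libraries shared a batch was not tested.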
